A study of Mus musculus with 16 samples.

Results

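The genes described here mark the cells of small brain vessels: endothelial cells, the transporters of the blood-brain barrier, pericytes and vascular smooth muscle. They are 32 genes of the 55385 in the deposited count table, taken by gene symbol from a list of vessel markers. No cut on measured values was used, but the list was chosen with earlier results of these data known. All 32 passed the filter on low counts and stand among the 17555 genes tested. Polyadenylated RNA came from the brain cortex of 16 mice, all 9 months old, with 4 mice (2 females and 2 males) in each of 4 genotype groups. The groups were wild-type C57BL/6J mice, Dp16 mice, 5xFAD mice, and 5xFAD-Dp16 mice that carry both genotypes; the labels name no treatment and no further allele. In Dp16 mice, a Down syndrome model, a distal stretch of chromosome 16 with many orthologs of human chromosome 21 genes is duplicated, so that its genes are present in 3 copies. 5xFAD mice are a model of amyloid deposition whose transgenes are driven by the Thy1 promoter, which is active in neurons and not in vessel cells. The comparisons ask how the duplication, the amyloid transgenes and their combination change the RNA of the cortical vessels.

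Endothelial cells of brain capillaries are sealed by tight junctions and take up nutrients through dedicated carriers, while efflux pumps return many lipophilic compounds to the blood. Pericytes share the capillary basement membrane and are recruited by endothelial PDGF-B acting on their receptor Pdgfrb, and contractile smooth muscle surrounds the arterioles. Vessel cells are a small share of the cells in cortex, so bulk RNA gives their genes modest levels, and in such samples fewer vessel cells and less RNA per vessel cell cannot be told apart.

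Library totals ran from 16874481 to 22912168 counts. The members' own counts per library ran from 8 for Myh11 to 6127 for Rgs5, with median counts of 35.5 for Anpep, 51.5 for Myh11 and at least 103 for the others. The 16 libraries also differed in how strongly expression depended on gene length. This was expressed as a length slope, the change in a library's log2 CPM per doubling of gene length, computed without the 32 members. Wild-type held both extremes, at −0.438 in replicate 3 and 0.281 in replicate 1, and the groups overlapped. The mean slope of wild-type was 0.0006 ± 0.314 (SD, n = 4) and that of Dp16 −0.057 ± 0.151; 5xFAD had 0.021 ± 0.139 and the double genotype 0.035 ± 0.113. The labels give separate samples and nothing on litters or dates, so p-values measure the spread between these 16 libraries.

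Per length of transcript, the most abundant members were not the classical endothelial receptors. On the RPKM scale (reads per kilobase of transcript, scaled to library size), averaged over 16 libraries, Itm2a stood highest at 59.1 ± 19.9 (SD), followed by the pericyte gene Rgs5 at 47.5 ± 6.64. Vtn at 41.0 ± 12 and Slc2a1 at 35.4 ± 14.6 came next, and these 4 neighbours in the order did not differ beyond their spread. Cldn5 at 25.7 ± 9.79 and Ly6c1 at 25.0 ± 4.03 formed a further pair. The lowest were Vwf at 0.657 ± 0.429, Anpep at 0.50 ± 0.227 and Myh11 at 0.487 ± 0.426. Vwf, the clotting factor carrier, and Myh11, the smooth muscle myosin, mark mainly vessels larger than capillaries. The members differed widely in how variable they were. The coefficient of variation of CPM (counts scaled to library size, with TMM factors) was 12.9% for Rgs5 and 13.4% for Ly6c1, against 63.9% for Vwf and 85.9% for Myh11. All levels that follow are on this CPM scale, listed for replicates 1 to 4 of a group.

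Among the junction and adhesion genes, Cldn5 encodes claudin 5, the main sealing protein of the barrier's tight junctions. Its CPM was 41.3, 30.4, 23.2 and 49.9 in wild-type, 27.6, 47.0, 16.9 and 21.4 in Dp16, 57.9, 54.1, 45.1 and 30.2 in 5xFAD, and 52.2, 30.7, 28.6 and 23.0 in 5xFAD-Dp16. All 4 groups overlapped, with the lowest level in a Dp16 library and the highest in a 5xFAD library. Cdh5, the endothelial adherens junction cadherin, spread far more: it measured 14.3, 4.45, 1.69 and 15.1 in wild-type and 12.4, 6.65, 2.48 and 4.06 in Dp16. The 5xFAD libraries gave 10.6, 4.83, 13.9 and 2.99, and the 5xFAD-Dp16 libraries 10.2, 2.95, 11 and 12.1. The range within wild-type alone, 8.92-fold, took in every other library. Pecam1, an adhesion molecule of endothelial contacts, had an 8.46-fold range within wild-type and its highest level, 27.2, in 5xFAD-Dp16 replicate 4. The scaffold protein Tjp1 (ZO-1) and the adhesion molecule Esam ranged 2.66-fold and 2.91-fold over all libraries. Occludin (Ocln), a second transmembrane protein of the tight junction, was the steadiest of the 6 and ran from 6.25 to 12.2. Tjp1 is also made outside vessels, so its level in cortex is not that of endothelium alone.

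The sequence upstream of Cldn5 is given because it is the member that defines the barrier's tight junction. Cldn5 is 1 of 3 members on chromosome 16 (with Atp13a5 and Myh11), and none of the 32 lies in the triplicated segment, taken as chromosome 16 from 75540514 to 97962622. The 250 bases before the start site, from RefSeq on GRCm38.p6, plus strand, chr16:18776597-18776846, read as follows.
Cldn5: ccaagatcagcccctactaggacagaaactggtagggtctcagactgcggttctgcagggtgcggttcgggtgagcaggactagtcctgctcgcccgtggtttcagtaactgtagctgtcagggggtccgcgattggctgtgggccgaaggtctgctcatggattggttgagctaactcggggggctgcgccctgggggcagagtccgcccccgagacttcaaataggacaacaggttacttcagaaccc
The motif AGGAAG, a core bound by ETS factors such as Erg and Fli1, was searched on both strands. It was not in this window. It occurred in the same windows of 9 of the 23 members that RefSeq's table matched (25 start sites) and in 29.5% of 32851 promoters of that length.

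The endothelial receptors Flt1 and Kdr bind VEGF, Tek and Tie1 form the angiopoietin receptor pair, and Eng is a co-receptor for BMP and TGF-beta ligands. Flt1 was the most abundant of them in CPM, with 53.4, 18.5, 7.54 and 57.4 in wild-type and 34.4, 21.8, 12.6 and 15.9 in Dp16. It gave 44.2, 16.5, 54.7 and 22.6 in 5xFAD and 31.6, 16.4, 41.0 and 45.9 in 5xFAD-Dp16. Wild-type replicates 1 and 4 were the highest wild-type libraries and replicate 3 the lowest of all 16, and the groups overlapped. Eng followed the same order within wild-type, at 22.1, 9.15, 4.16 and 23.3. Kdr, the main signalling VEGF receptor, ran from 1.54 to 11.1 over all libraries, Tek from 1.04 to 11.7 and Tie1 from 1.33 to 9.16. For all 5 receptors the highest library was a wild-type one; the lowest was wild-type replicate 3 for Flt1, Tie1 and Eng and Dp16 replicate 3 for Kdr and Tek. The Flt1 promoter is shown, chosen after its values were seen, since Flt1 is the longest member (10961 exonic bases) and carries the motif above. Capitals mark AGGAAG at −129 to −124 and −53 to −48 from the start site (chr5:147726012-147726261, minus strand, GRCm38.p6, RefSeq), and a TATAAA lies downstream of the second.
Flt1: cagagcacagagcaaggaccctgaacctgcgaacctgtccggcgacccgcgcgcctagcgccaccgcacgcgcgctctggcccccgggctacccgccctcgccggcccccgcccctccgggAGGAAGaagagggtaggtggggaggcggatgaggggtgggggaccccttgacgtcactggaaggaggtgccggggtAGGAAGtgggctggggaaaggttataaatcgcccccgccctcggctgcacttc
TATAAA was found in 3 of the 23 matched members (Flt1, Ly6c1 and Vtn) and in 12.4% of all promoters.

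Of the barrier transporters, Slc2a1 (GLUT1) carries glucose, Mfsd2a carries lysophosphatidylcholine with omega-3 fatty acids and restrains transcytosis, Slco1a4 carries organic anions and Abcb1a is the P-glycoprotein efflux pump. Slc2a1 CPM was 144, 104, 52.3 and 102 in wild-type, 208, 76.9, 80.9 and 81.0 in Dp16, 118, 65.4, 191 and 84.9 in 5xFAD, and 108, 102, 144 and 170 in 5xFAD-Dp16. Dp16 replicate 1 was the highest of all 16, while the other 3 Dp16 libraries stayed between 76.9 and 81.0. Mfsd2a was highest in the same library, at 26.9, and ran from 11.1 to 24.4 in the other 15. Abcb1a had the widest range within wild-type of all members, at 23.8, 8.06, 1.87 and 28.2, a ratio of 15.1. Its other groups stayed inside that range, from 7.06 to 23.2. Slco1a4 was even in 5xFAD (27.8 to 32.4) and in 5xFAD-Dp16 (21.4 to 25.9), and these 2 groups did not overlap, but wild-type ran from 10.8 to 46.9. How many of all genes keep these 2 groups apart was not counted, and Slco1a4 was called in no comparison. Abcb1a and Slco1a4 have near-identical relatives in the genome, so their counts depend on how multiply matching reads were treated.

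The other endothelial genes held 2 of the 4 members of lowest coefficient of variation, Ly6c1 and Emcn. Ly6c1, a surface protein anchored by GPI, measured 38.8, 38.6, 28.5 and 37.5 in wild-type, 39.3, 37.0, 31.8 and 32.5 in Dp16, 43.3, 40.0, 40.2 and 34.2 in 5xFAD, and 38.5, 43.3, 47.9 and 45.9 in 5xFAD-Dp16. The highest libraries were 5xFAD-Dp16 replicates 3 and 4, the lowest was wild-type replicate 3, and the groups overlapped. Ly6c1 (chr15:75044018-75048830, minus strand) has a close paralog, Ly6c2, which is expressed by monocytes, so its counts are uncertain to that extent. Emcn, an endothelial sialomucin typical of capillaries and veins, measured 9.11, 7.86, 9.05 and 10.3 in wild-type and 7.66, 6.94, 5.81 and 6.56 in Dp16. In 5xFAD it measured 8.53, 11.4, 10.1 and 9.61, and in 5xFAD-Dp16 9.15, 5.28, 7.97 and 7.80. The gene lies at chr3:137341067-137432185 on the plus strand (GRCm38). All 4 Dp16 libraries lay below all 4 wild-type and all 4 5xFAD libraries. The share of all genes tested that separate groups in this way was not counted, and Emcn was called in no comparison. Itm2a, an integral membrane protein enriched in brain endothelium, went the other way from most members across wild-type, at 62.7, 84.3, 196 and 111. Podxl, a luminal sialomucin, had a 9.03-fold range within wild-type, and Vwf one of 5.94-fold.

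Among the pericyte and mural genes, Rgs5, a regulator of G-protein signalling, was the steadiest member of all. Its CPM was 197, 155, 196 and 222 in wild-type, 182, 199, 205 and 231 in Dp16, 225, 233, 267 and 224 in 5xFAD, and 249, 250, 213 and 205 in 5xFAD-Dp16. The gene lies at chr1:169655501-169695813 on the plus strand. Every 5xFAD library was above every wild-type library, while Dp16 and 5xFAD-Dp16 overlapped both. How many of all genes separate these groups was not counted, and Rgs5 was called in no comparison. Pdgfrb, the receptor by which pericytes are recruited, was far more variable, at 14.9, 5.84, 2.90 and 20.2 in wild-type and 9.76, 5.30, 5.11 and 4.37 in Dp16, and 4.92 to 15.2 in the remaining 8 libraries. Abcc9 and Kcnj8, which lie side by side on chromosome 6, encode the subunits of the pericyte ATP-sensitive potassium channel. Their levels spread differently: Abcc9 ran from 1.93 to 12.8, a 6.64-fold range, and Kcnj8 from 6.38 to 13.6, a 2.13-fold range. In each of the 4 groups the highest Kcnj8 value belonged to a male mouse except in Dp16, where replicate 3, a female, stood at 9.53 and the males at 9.23 and 8.75. Anpep (CD13) was the least abundant pericyte gene, with 16 to 63 counts, and measured 3.11, 1.09, 1.99 and 2.91 in wild-type and 1.79, 0.964, 0.943 and 1.28 in Dp16. Notch3, a mural receptor, ran from 1.99 to 11.7, Atp13a5 from 1.09 to 9.07, Vtn (vitronectin) from 38.0 to 105 and Higd1b from 2.29 to 9.17.

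The smooth muscle contractile genes mark arterioles and the pial vessels kept with the cortex. Acta2, smooth muscle actin, measured 13.2, 12.8, 8.27 and 21.8 in wild-type, 15.4, 11, 5.61 and 12.9 in Dp16, 14.7, 12.5, 15.5 and 7.99 in 5xFAD, and 8.93, 5.73, 9.46 and 15.1 in 5xFAD-Dp16. Tagln (SM22), an actin-binding protein, measured 13.4, 18.1, 33.9 and 14.8 in wild-type and 12.9, 10.9, 20.6 and 20 in Dp16. It measured 11.3, 16.6, 20.2 and 17.8 in 5xFAD and 10.6, 11.5, 9.56 and 16.6 in 5xFAD-Dp16. Tagln lies at chr9:45929619-45936058 and Acta2 at chr19:34241090-34255590, both on the minus strand. The groups overlapped for both genes, and wild-type replicate 3 held the highest Tagln value of the 16 and the lowest Acta2 value of wild-type. Myh11 had 8 to 202 counts per library and a 26.5-fold range, with its highest values in wild-type replicate 4 (9.49) and 5xFAD-Dp16 replicate 4 (9.14). Exons of Tagln overlap Pcsk7 and an antisense gene on the opposite strand, and exons of Eng, Slc2a1, Abcb1a, Notch3 and Abcc9 overlap 1 opposite-strand gene each, and the strand setting of the counting is not given. Reads of Acta2 can also match other actin genes.

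Smooth muscle genes are driven by serum response factor through CArG boxes, and the Acta2 promoter is shown for that reason. No matched member held a strict box (CC, 6 bases of A or T, GG), which 1.47% of all promoters hold. A looser form with at most 1 G or C among the 6 inner bases, searched after this sequence was seen, was present in Acta2, Ocln, Kdr, Eng and Slco1a4, 5 of 23 matched members, and in 8.59% of all promoters. Capitals mark its 2 matches at −84 to −75 and −34 to −25 from the RefSeq start (chr19:34255374-34255623, minus strand, GRCm38.p6).
Acta2: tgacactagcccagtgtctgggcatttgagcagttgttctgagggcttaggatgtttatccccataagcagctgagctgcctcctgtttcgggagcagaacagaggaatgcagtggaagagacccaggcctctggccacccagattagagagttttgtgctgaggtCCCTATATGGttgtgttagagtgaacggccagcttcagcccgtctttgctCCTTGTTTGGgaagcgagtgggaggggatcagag

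**Figure D1:**
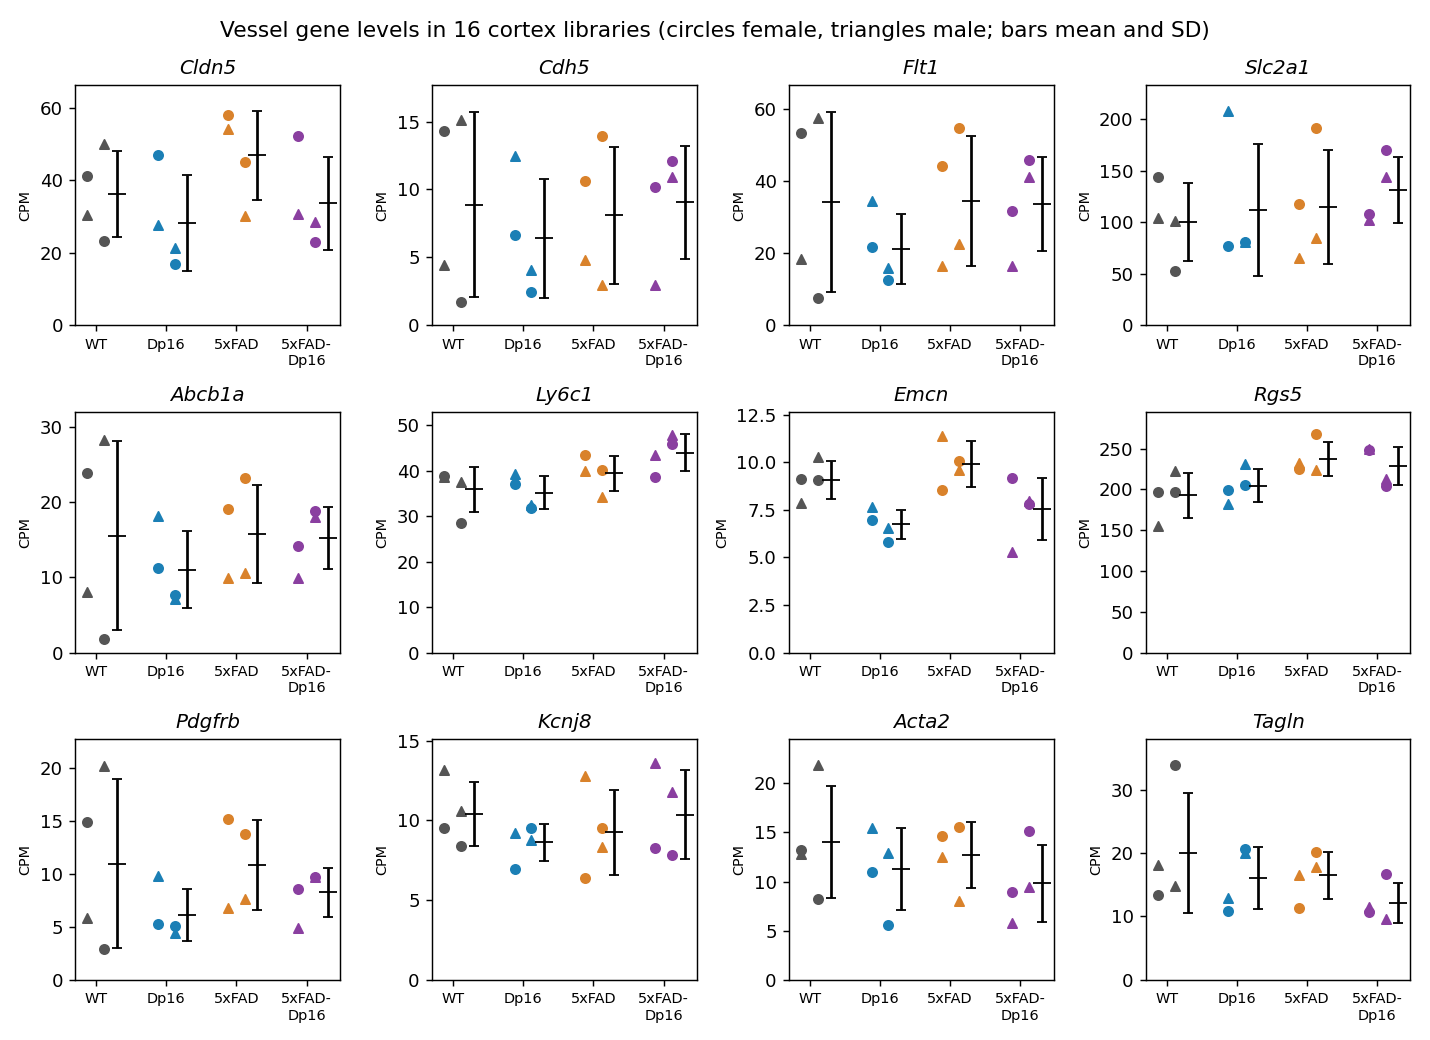
Levels of 12 vessel genes in CPM (vertical axis, from 0) for each of the 16 libraries, by genotype group on the horizontal axis; circles are females, triangles males, and the bars give the mean and SD of 4 libraries. Cdh5, Flt1, Abcb1a and Pdgfrb spread widely within wild-type, Rgs5 and Ly6c1 little, and the 4 Dp16 libraries of Emcn lie below the 4 wild-type ones. No gene shown was called in any comparison.

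The spread among libraries followed the length slope for most members, whatever the genotype. Across the 16 libraries 27 members correlated positively with the slope and 5 negatively. Pearson's r passed the threshold in 26 of 32 (permutation test, 2-sided, Benjamini-Hochberg adjusted over the 32), 23 of them positive and 3 negative, and Spearman's rho in 28. The share of all genes tested that would pass this threshold was not computed. The median r of the members was 0.75, against 0.01 over all genes tested, where positive and negative values offset each other. Of the members 14 of 32 had an r of at least 0.8, against 16.3% of all genes tested. Counting both signs, 16 of 32 reached a size of 0.8, against 31.2% of all genes tested. The closest relations were those of Tjp1 (r = 0.959, rho = 0.900), Abcb1a (0.944 and 0.921), Flt1 (0.943 and 0.918), Eng (0.933 and 0.885) and Pecam1 (0.932 and 0.891). For each of these r the permutation p of 1e-05 was the smallest that 100000 resamples can give. Itm2a (r = −0.851), Higd1b (−0.809) and Tagln (−0.661) ran against the slope, and Rgs5 (−0.02), Kcnj8 (−0.05) and Emcn (0.24) showed no relation that passed the test. Without wild-type replicates 3 and 1, the libraries farthest from the median slope, 25 of the 26 kept their sign at a size of at least 0.5, and Tagln stood at −0.43. Within groups, after each group's mean was removed, the r of Tjp1 was 0.974 and that of Itm2a −0.888, so both relations were also present within genotypes. Members and slope were taken from the same libraries, and what sets the slope was not tested.

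**Figure D2:**
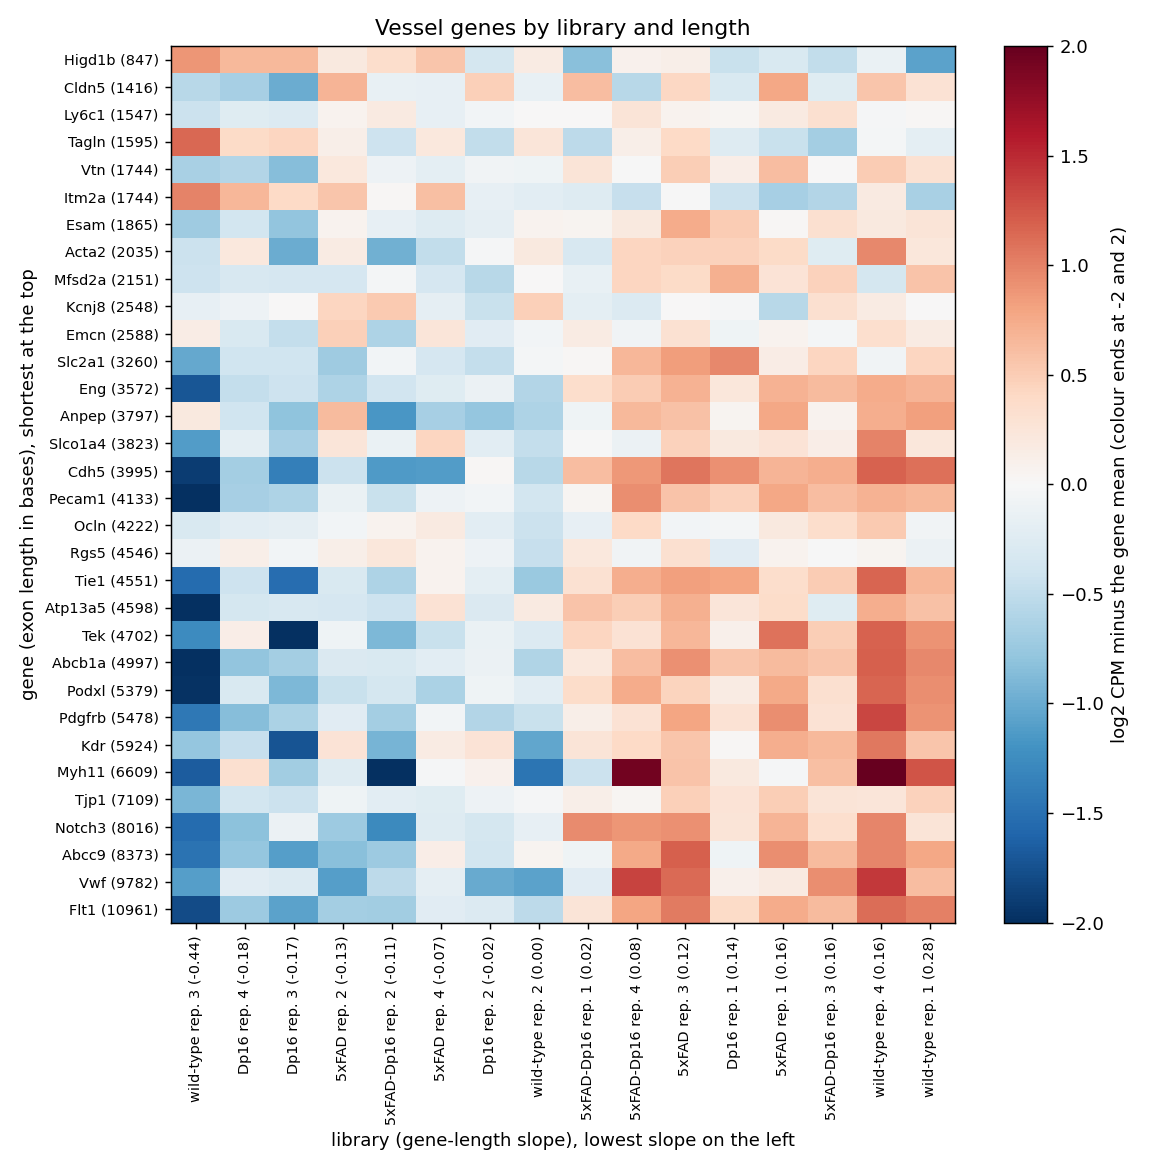
Deviation of each member's log2 CPM from its own mean (colour, ending at −2 and 2) for 32 genes, ordered by exon length from top to bottom, in 16 libraries ordered by length slope from left to right. Most long genes pass from blue at the low-slope end to red at the high-slope end, while Higd1b, Itm2a and Tagln pass the other way.

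Since the slope is itself a regression on gene length, long genes are bound to rise with it on average and short genes to fall, and the members are described here only to show which of them did so. The change in log2 CPM per 0.1 of slope was 0.52 for Cdh5, 0.50 for Abcb1a, 0.46 for Flt1 and 0.41 for Abcc9. It was 0.14 for Cldn5 and 0.08 for Ly6c1, which are short, and −0.25 for both Higd1b and Itm2a. Across the 32 members this coefficient correlated with log2 exon length at r = 0.728 (rho 0.706). The slope's definition gives such a relation to genes on average, though not its size in these 32. With the mean log2 CPM r was −0.343. Rgs5, at 4546 exonic bases close to Tie1 (4551), had a coefficient near 0 where Tie1 had 0.39. Among short members Vtn and Itm2a, both of 1744 bases, had 0.18 and −0.25, so members of like length differed in it. The members were longer than most genes, with a median exon length of 4064 bases against 3046 over all genes tested.

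**Figure D3:**
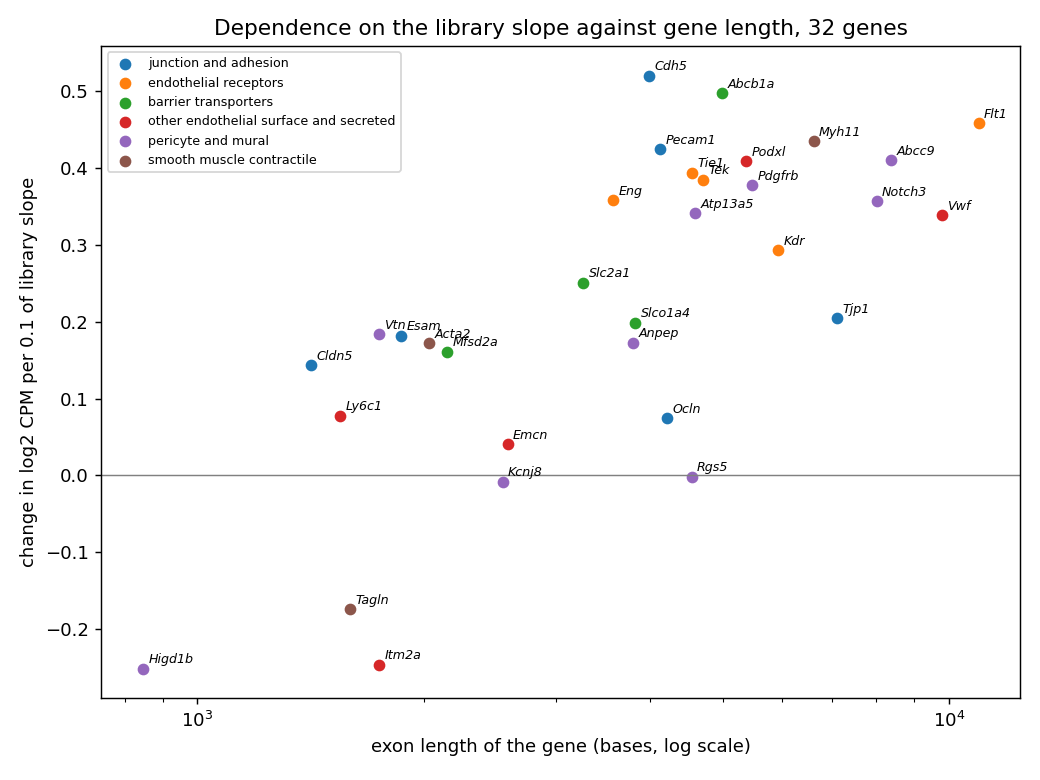
Change in log2 CPM per 0.1 of library slope (vertical axis) against exon length in bases (horizontal log axis) for the 32 members, coloured by role. Genes above about the median length reach 0.52, the shortest genes lie between −0.25 and 0.18, and Rgs5 and Kcnj8 sit near 0.

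Dp16 and wild-type cortex were compared for the effect of the duplication alone. Most vessel genes had a fold change below 0 in Dp16, though not without wild-type replicate 4, and none of them passed the test. edgeR's quasi-likelihood test called 0 of 32 members at an adjusted p under 0.05, where it called 0.0057% of all genes tested (1 gene); 1 member had an unadjusted p under 0.05, against 2.2% of all genes, and DESeq2, limma-trend on log2(RPKM + 0.1) and edgeR with the slope as a further term also called 0 members, where they called 0.0968%, 0.0057% and 0.251% of all genes. The log2 fold changes were below 0 for 29 members and above 0 for 3, with a median of −0.36 against −0.03 for all genes tested. By role, the receptors had the lowest median (−0.51, with 0 of 5 above 0) and the transporters the one nearest 0 (−0.16, with 1 of 4 above 0). The junction genes stood at −0.18 (0 of 6), the other endothelial genes at −0.43 (0 of 5), the pericyte genes at −0.37 (2 of 9) and the smooth muscle genes at −0.32 (0 of 3). The member of smallest p was Emcn, at a log2 fold change of −0.43 ± 0.19 (SE, edgeR adjusted p = 0.9998), then Anpep at −0.83 ± 0.44 (adjusted p = 0.9998; −0.53 without wild-type replicate 4). The median rested on single libraries. Without wild-type replicate 4 it was −0.02 with 16 members above 0, and without wild-type replicate 1 it was −0.23. Without wild-type replicate 3 it was −0.58, and without Dp16 replicates 1 and 3 in turn −0.55 and −0.19. It was −0.07, with 12 members above 0, once the length slope entered the fit. Without the 3 libraries of lowest slope it stayed at −0.32, with 4 members above 0, so the 2 ways of handling the slope differed. The 95% intervals lay wholly inside a 2-fold change for 13 members, and for 26 with the slope in the fit. For the rest the data do not exclude a 2-fold change.

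5xFAD against wild-type, the effect of the amyloid transgenes alone, gave no call among the vessel genes either. edgeR called 0 of 32 members against 1.52% of all genes tested; 0 members had an unadjusted p under 0.05 (7.1% of all genes). DESeq2, limma-trend and edgeR with the slope called 0 members too, against 2.68%, 1.74% and 5.28% of all genes. The members' median log2 fold change was 0.05, with 20 above 0, against −0.05 for all genes. It was 0.38 without wild-type replicate 4 and turned to −0.13 without wild-type replicate 3, to −0.08 without 5xFAD replicate 3, and to 0 at 2 decimals without wild-type replicate 2. Rgs5 had the smallest p at 0.30 ± 0.14 (edgeR adjusted p = 0.72, 0.104 to 0.9999 over its alternatives), with all 4 5xFAD libraries above all 4 wild-type ones. Cldn5 followed at 0.35 ± 0.34 (adjusted p = 0.955). Its value was 0.15 and 0.62 without wild-type replicates 3 and 4 in turn, and 0.53 without 5xFAD replicate 4. With the slope in the fit Pecam1, named after its values were seen, had the lowest adjusted p of the 32, at 0.51 ± 0.16 (edgeR adjusted p = 0.0760), against 0.26 ± 0.50 without it.

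In 5xFAD-Dp16 against wild-type edgeR called 0 of 32 members against 0.501% of all genes tested, with 1 member at an unadjusted p under 0.05 (4.52% of all genes). DESeq2, limma-trend and the fit with the slope, which called 1.3%, 0.598% and 2.05% of all genes, called 0 members. The median was −0.04, equal at 2 decimals to that of all genes, with 12 members above 0. It was 0.07 with 17 above 0 when the slope was in the fit, 0.20 with 22 above 0 by limma-trend on log2(RPKM + 0.1) and 0.06 with the replicate block. It was −0.27 without wild-type replicate 3 and turned above 0 without wild-type replicate 4 (0.29), wild-type replicate 1 (0.12), 5xFAD-Dp16 replicate 2 (0.15) or 5xFAD-Dp16 replicate 1 (0.01). Tagln was lower by the smallest p, at −0.72 ± 0.30 (edgeR adjusted p = 0.925), with 3 of the 4 double-genotype libraries below all wild-type libraries. Without wild-type replicate 3, which held the 33.9 CPM, it was −0.35. Ly6c1 stood at 0.29 ± 0.14 (adjusted p above 0.99), with 3 of the 4 above all wild-type libraries.

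Adding the duplication to the transgenes, 5xFAD-Dp16 against 5xFAD, gave 0 of 32 members called by edgeR against 0.0057% of all genes. No member had an unadjusted p under 0.05 (3.59% of all genes). Nor was any called by DESeq2 (0.148% of all genes), limma-trend (0.0057%) or the fit with the slope (0.695%). The median was −0.07, with 13 members above 0. It ran from −0.23 without 5xFAD replicate 2 to 0.05 without 5xFAD replicate 3, and was also above 0, though below 0.02, without 5xFAD replicate 1 or 5xFAD-Dp16 replicate 2. Emcn stood at −0.39 ± 0.19 and Tagln at −0.46 ± 0.30 (edgeR adjusted p = 0.9997 each), and Emcn at −0.24 without 5xFAD-Dp16 replicate 2. Adding the transgenes to the duplication, 5xFAD-Dp16 against Dp16, gave 0 of 32 called against 0.387%, with 1 at an unadjusted p under 0.05 (3.92%). Again 0 were called by DESeq2 (1.02% of all genes), limma-trend (0.399%) or the fit with the slope (1.21%). Here 28 members were above 0, with a median of 0.34 against 0.01 for all genes, and 0.14 with the slope in the fit. The median was 0.63 without Dp16 replicate 1, 0.18 without Dp16 replicate 3, and 0.08 without the 3 libraries of lowest slope. Ly6c1 led at 0.32 ± 0.14, followed by Ocln at 0.35 ± 0.21 (edgeR adjusted p = 0.980 each; Ocln at 0.22 without 5xFAD-Dp16 replicate 4). These 2 comparisons share the 5xFAD-Dp16 libraries, and those against wild-type share the wild-type ones.

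**Figure D4:**
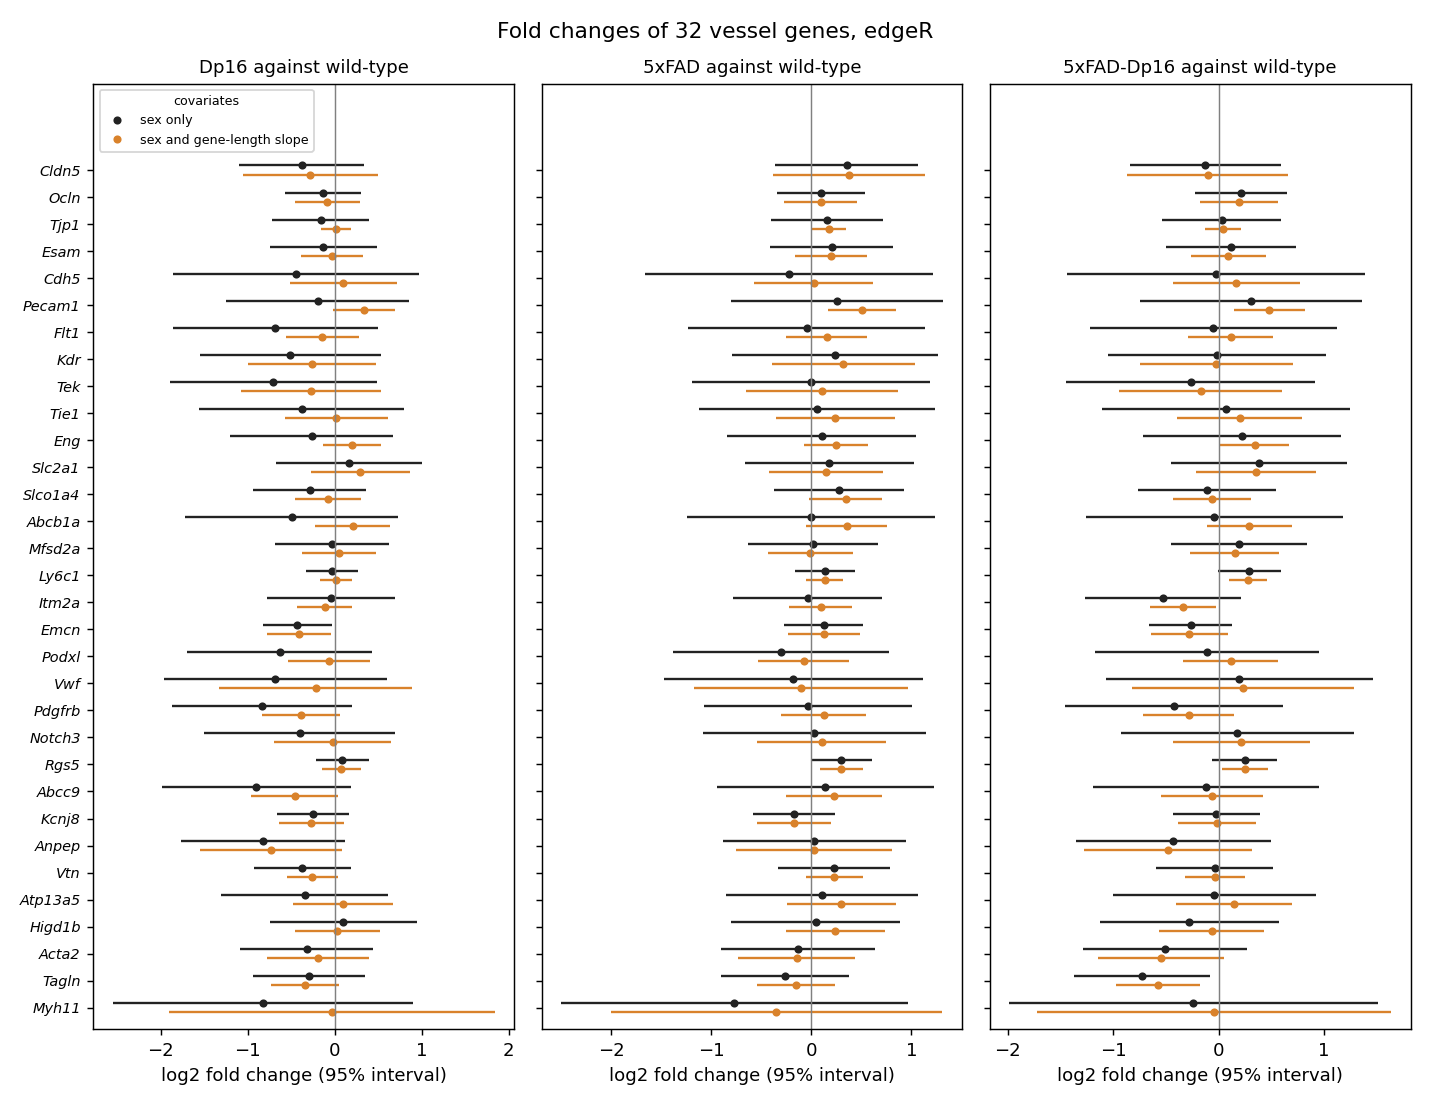
Log2 fold changes with 95% intervals (horizontal axis) of the 32 members against wild-type in 3 panels, from edgeR with sex as covariate (black) and with sex and the length slope (orange). Dp16 lies mostly below 0 without the slope and nearer to 0 with it, and the orange intervals are narrower for most genes, Cldn5 and Myh11 being exceptions in the Dp16 panel.

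The interaction asks whether the transgenes act differently with the duplication than without it. edgeR called 0 of 32 members and 0% of all genes tested, with 0 members and 1.36% of all genes at an unadjusted p under 0.05. DESeq2 called 0 members and 0.0057% of all genes, and limma-trend and the fit with the slope called 0% of either. The smallest p belonged to Kcnj8 (0.40 ± 0.27) and Vwf (1.06 ± 0.85), both at an edgeR adjusted p above 0.99. Vwf stood at 0.23 without wild-type replicate 4, at 0.57 without 5xFAD-Dp16 replicate 4 and at 0.55 with the slope. The median interaction was 0.25 with 25 members above 0, and −0.04 with 13 above 0 when the slope was in the fit. Without the 3 libraries of lowest slope the median was 0.21, with 21 above 0. Without wild-type replicate 4 it was −0.06, and with any other library left out it ran from 0.08 (without Dp16 replicate 3) to 0.53 (without Dp16 replicate 1). The 95% interval lay inside a 2-fold change for 8 members, and for 23 with the slope in the fit; for the remaining members of each fit a 2-fold difference between the responses is not excluded.

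Averaging over the other genotype used all 16 mice for each effect. For the transgenes edgeR called 0 of 32 members, against 2.18% of all genes, with 2 members at an unadjusted p under 0.05 (8.48% of all genes). DESeq2, limma-trend and the fit with the slope called 0 members, against 3.49%, 2.42% and 6% of all genes. The median was 0.22, with 27 above 0, against −0.02 for all genes, and 0.17 with the slope. It was 0.07 without wild-type replicate 3, 0.14 without replicate 3 of Dp16 or of 5xFAD, 0.34 without wild-type replicate 4, and −0.01 without the 3 libraries of lowest slope. By role, the junction genes (median 0.23, 6 of 6 above 0), receptors (0.29, 5 of 5), transporters (0.21, 4 of 4) and pericyte genes (0.21, 8 of 9) lay mostly above 0, and the 3 smooth muscle genes below it (−0.16, 0 of 3). Ly6c1 stood at 0.23 ± 0.10 (edgeR adjusted p = 0.513; 0.0693 to 0.813 over its alternatives) and Rgs5 at 0.23 ± 0.10 (adjusted p = 0.53; 0.0672 to 0.87). Both lowest values came from the fit with the slope, where the standard errors were 0.06 and 0.07. For the duplication edgeR called 0 of 32 against 0.0968%, with 1 at an unadjusted p under 0.05 (4.29%). The same 3 alternatives called 0 members, against 0.365%, 0.125% and 1.03% of all genes. The median was −0.20, with 4 above 0, and −0.06 with the slope, but −0.24 without the 3 libraries of lowest slope. It was −0.07 without wild-type replicate 4, −0.13 without 5xFAD replicate 3, and −0.32 and −0.35 without wild-type replicate 3 and Dp16 replicate 1. Emcn stood at −0.41 ± 0.13 (edgeR adjusted p = 0.777; 0.133 to 1 over its alternatives). It kept that size in the fit with the slope (−0.41 ± 0.12) and was the only member whose 95% interval excluded 0 in the fit without it. With the slope in the edgeR fit 7 members had an unadjusted p under 0.05, a share that was not counted over all genes. Anpep stood at −0.64 ± 0.31 (adjusted p above 0.99).

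Between males and females edgeR called 0 of 32 members against 0.0456% of all genes, with 1 at an unadjusted p under 0.05 (2.93%). DESeq2, limma-trend and the fit with the slope called 0 members, against 0.114%, 0.0399% and 0.0741% of all genes. That member was Kcnj8, higher in males by 0.40 ± 0.14 on the log2 scale (edgeR adjusted p above 0.99), followed by Slco1a4 at 0.30 ± 0.22 (0.17 and 0.08 without wild-type replicates 3 and 4 in turn). Over the members the median was −0.07, with 9 above 0. With wild-type replicate 1 left out it was 0.04, with wild-type replicate 3 or 4 left out −0.19 or −0.22, and without the 3 libraries of lowest slope −0.30.

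Further genes of the same pathways were followed in 9 lists of 119 genes, 114 of them tested. The lists held ligands and partner receptors of the members, Wnt and Norrin signalling, endothelial transcription factors, further junction proteins, transporters, basement membrane, endothelial activation and further mural genes. In Dp16 against wild-type edgeR called 0 of the 114, against 0.0057% of all genes tested; DESeq2 called 1 of them higher (Jam2, against 0.0968% of all genes) and edgeR with the slope 2 (Jam2 and Ets2, against 0.251%), and the medians were lowest for the transcription factors (−0.40, with 2 of 14 above 0), the basement membrane (−0.28, 4 of 12) and Wnt and Norrin signalling (−0.24, 3 of 13). With the slope in the fit these medians were −0.04, −0.04 and 0.00. With the transgenes, averaged over both backgrounds, 6 of the 114 rose and 0 fell, 5.26% against 2.18% of all genes tested. The lists were chosen with earlier results of these data known, so this share is no test of an excess in them. Tgfb1, the ligand, rose by 1.19 ± 0.26 (SE, log2), and its receptors Tgfbr1 by 0.85 ± 0.14 and Tgfbr2 by 1.29 ± 0.24. F11r, a junctional adhesion molecule, rose by 0.70 ± 0.15, Slco2b1, an organic anion carrier, by 0.92 ± 0.19, and Icam1, the leukocyte adhesion molecule, by 1.27 ± 0.25. Their edgeR adjusted p ran from 0.00198 for Tgfbr1 to 0.0234 for Tgfb1. In CPM (mean ± SD, n = 4) the levels of Tgfbr2 were 11.7 ± 4.90 for wild-type and 9.79 ± 2.91 for Dp16, against 30.7 ± 9.11 for 5xFAD and 24.6 ± 10.4 for the double genotype. In the same order Icam1 had 1.94 ± 1.00, 2.02 ± 0.526, 5.27 ± 1.23 and 4.39 ± 0.746. Tgfb1 lost its call without any 1 of 9 libraries (wild-type replicate 2, Dp16 replicates 2, 3 and 4, 5xFAD replicates 1 and 2, and 5xFAD-Dp16 replicates 1, 3 and 4), at adjusted p of 0.0507 to 0.0593. F11r lost it without wild-type replicate 1, Dp16 replicates 2 or 3, or 5xFAD replicate 2, at 0.0519 to 0.0562. The RNA is of whole cortex, so none of the 6 rises can be assigned to vessel cells. Tgfb1, Tgfbr1 and Tgfbr2 are known to be expressed by microglia as well. All 8 microglial markers followed rose in the same comparison (median 1.16), their summed RPKM being 361 to 449 in libraries without the transgenes and 587 to 1619 in those with them; their part in the result was not tested.

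Against wild-type alone 1 of the 114 rose in 5xFAD, 0.877% against 1.52% of all genes. It was Tgfbr1, at 0.94 ± 0.20 (edgeR adjusted p = 0.0219), a call lost without wild-type replicate 2 (0.0886), without 5xFAD replicate 3 (0.0973) and in a fit of these groups only (0.199). The duplication raised 1 listed gene, the junctional adhesion molecule Jam2, which lies in the triplicated segment (chromosome 16, 84774123 to 84825928, GRCm38). Its CPM (mean ± SD, n = 4) was 103 ± 5.35 for Dp16 and 105 ± 6.61 for the double genotype, against 59.0 ± 5.28 for wild-type and 72.6 ± 12.5 for 5xFAD. It rose by 0.67 ± 0.09 averaged over both backgrounds (edgeR adjusted p = 0.0107, and 0.0528 without 5xFAD-Dp16 replicate 3) and by 0.84 ± 0.13 in 5xFAD-Dp16 against wild-type (adjusted p = 0.00721, and 0.172 in a fit of these groups only). In Dp16 against wild-type it stood at 0.81 ± 0.13 (adjusted p = 0.158, and 0.000233 with the slope in the fit), a comparison in which DESeq2 also called it. The segment also holds the ETS factors Erg, which was called in no genotype comparison under any fit run, and Ets2. Ets2 stood at 0.56 ± 0.18 for the averaged duplication (adjusted p = 0.777) and at 0.64 ± 0.07 with the slope in the fit (adjusted p = 1.98e-06).

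Markers of the other cells of cortex were abundant in every library: the summed RPKM of 6 neuronal markers ran from 2293 to 3700, of 6 astrocyte markers from 1136 to 2231 and of 6 oligodendrocyte markers from 894 to 1781. The astrocyte sums were 1136 to 1376 in libraries without the transgenes and 1436 to 2231 in those with them. RNA of neighbouring tissues also varied between libraries. The summed RPKM of 10 choroid plexus markers ran from 49.9 to 2164, that of 5 red blood cell genes from 67.0 to 471, and that of 10 perivascular and meningeal fibroblast genes from 10.8 to 30.9. None of these 25 genes was at 0 in every library. The choroid plexus sums were high in single libraries of 3 groups: 962 and 1134 in Dp16 replicates 1 and 4 against 76 and 49.9 in replicates 2 and 3, 779 and 2164 in 5xFAD-Dp16 replicates 1 and 4 against 63.1 and 92.7, and 601 in 5xFAD replicate 4. Wild-type ran from 80.5 to 351. All 10 markers had a log2 fold change above 0 in Dp16 and in 5xFAD-Dp16 against wild-type, with 0 called by edgeR, and 1 of them, Clic6, lies in the triplicated segment. The fitted log2 fold changes of the fibroblast genes were below 0 for 10 of 10 in 5xFAD-Dp16 against wild-type (median −0.53, 0 called). The mean CPM of Igf2, among them, was however 2.66 ± 2.59 (SD) in 5xFAD-Dp16 and 2.42 ± 1.11 in wild-type. The part of these neighbouring tissues in the members' values, Tagln included, was not tested.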

How the data were processed

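RNA-seq libraries of cortex from 16 mice were made with a stranded polyA kit and sequenced in pairs of reads, per the labels' protocols. The authors deposited a table of raw read counts per gene and a table of RPKM. Per the submitters' processing notes, reads were handled with HISAT2 2.1.0 and HTSeq 0.6.1 besides SAMtools 1.5, FastQC 0.11.5 and bcl2fastq, on build GRCm38. The table's title names GENCODE release 24 of the mouse annotation; coordinates are from release 21 on the same build. The strand setting of the counting is not given in the sources here. RPKM divided by the counts gave whole-number gene lengths, and these lengths were used.

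Counts were tested with edgeR 4.0.16 in R 4.3.3 (quasi-likelihood F-test, TMM scaling, filterByExpr with a minimum count of 10), with 4 genotype groups in 1 fit and sex as covariate. The p-values were adjusted by Benjamini-Hochberg over 17555 genes, with a threshold of 0.05. The length slope of a library is the regression of its log2 CPM deviations on the log2 length of protein-coding genes whose mean log2 CPM is above 2, leaving out the 32 members. Alternatives were DESeq2 1.42.0, limma 3.58.1 (limma-trend on log2 RPKM plus 0.1 or 1), RLE scaling, no filter, no sex term, the replicate block, the slope as covariate, fewer groups, and each library left out. Only the edgeR test was checked on simulated counts. These held no length slope between libraries, so the check does not cover that feature of the data. Fold changes were named singly for members called and otherwise for the 2 of smallest p in each comparison; members called with the slope covariate were to be added, and there were none. The members and the lists were chosen with earlier results of these data known.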

Additional observations from a re-analysis of the deposited data

Results flagged for a closer look

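Within the groups of 4, 5 member levels stood apart from the other 3 libraries by Dixon's criterion, out of 128 groups examined, where chance flags about 1 in 20. Of these, 4 were in Dp16 replicate 1. Its Slc2a1 level was 208 CPM where the next Dp16 library had 81.0, its Mfsd2a level 26.9 against 13, its Atp13a5 level 6.43 against 4.43, and its Ocln level 8.23 against 7.44. Dp16 replicate 1 also had the highest length slope of its group, 0.139. The fifth was Ly6c1 in wild-type replicate 3, at 28.5 CPM where the next wild-type library had 37.5, in the library of lowest length slope.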

How the results depend on the processing

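In each of the 9 comparisons 0 of 32 members were called under every alternative run for it: DESeq2, limma-trend, RLE scaling, no filter, the slope, the replicate block and each library left out in all 9, no sex term in 8 (not in males against females) and only the groups compared in the 5 comparisons of group pairs. None of the 18 named fold changes of members reversed. The median standard error of the members in Dp16 against wild-type was 0.42 (log2), and 0.21 with the length slope. With limma-trend on log2(RPKM + 0.1) the members' median in Dp16 against wild-type was −0.18, and in 5xFAD against wild-type 0.24. The replicate numbers did not pair the libraries: over 24 same-numbered pairs the correlation of deviations ran from −0.354 to 0.514, and 6 of 16 libraries correlated best with their own number. With the replicate block 0 members were called in every comparison and the median in Dp16 against wild-type was −0.30. In 5xFAD against wild-type the block gave 4 called pathway genes where the fit without it gave 1. That count was 11 with the slope (9 higher, 2 lower), 6 without the filter, 5 with DESeq2, 2 or 3 with limma-trend and 2 without the sex term. For the averaged transgene effect the 6 pathway calls, all higher, became 9 with the slope (8 higher, 1 lower), 8 without the filter and 4 to 6 with a library left out. Among all genes tested, the slope raised the share called in 5xFAD against wild-type from 1.52% to 5.28%.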

Other observations

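Among the 4 barrier transporters, 6 pairs were compared across the 16 libraries, and 2 pairs had the highest r after the length slope was removed from both genes. The p-values given belong to r and rho with the slope left in, and none was computed with it removed. How many pairs among all genes tested correlate as closely was not counted, and what links these pairs was not tested. Slc2a1 and Mfsd2a, carriers of glucose and of lipids, correlated at r = 0.902 (permutation p = 1e-05, the smallest possible, adjusted over 6 pairs 6e-05) and rho = 0.900 (p = 3e-05, adjusted 0.00018). Without Dp16 replicate 1 and wild-type replicate 3, r was 0.895, and with the slope removed 0.797. Slco1a4 and Abcb1a correlated at r = 0.841 (permutation, adjusted p = 0.00018) and rho = 0.768 (adjusted p = 0.00267), at 0.658 without wild-type replicates 3 and 4, and at 0.704 with the slope removed. Slc2a1 and Abcb1a correlated at r = 0.768 (permutation, adjusted p = 0.00054), but at 0.044 with the slope removed. The remaining 3 pairs stood between −0.471 and −0.274 with the slope removed. Of these, Abcb1a and Mfsd2a had r = 0.582 with it left in (permutation, adjusted p = 0.0196) and rho = 0.482 (adjusted p = 0.0906).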
